A study of Mus musculus with 16 samples.

Results

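Wild-type gastrocnemius muscle was compared between a pair of calcineurin mouse lines. The comparison set 4 arrays labelled wild type (WT) of the Ppp3cb line (Ppp3cb WT, animals 12, 2, 23 and 24) against 4 arrays labelled WT of the Ppp3r1 line (Ppp3r1 WT, animals 334, 336, 413 and 415), out of 16 arrays in the series. The features were the probe sets, here called clusters, that carry 1 gene symbol and whose mean log2 level over these 8 arrays reached a fixed threshold of 6.18. The threshold is the rounded 30th percentile of the means of single-symbol clusters over all 16 arrays. It was reached by 15292 of 21789 single-symbol clusters, and they stand for 13948 genes.

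Both groups were male mice on a C57Bl6J background, and all ate a high-fat diet, in which butter fat gave 40% of calories, for 8 weeks or more. In the Ppp3cb line the beta catalytic subunit of calcineurin is knocked out (KO) in the whole body. The Ppp3r1 line lacks the calcineurin regulatory subunit through a Cre recombinase driven by the Mlc1f promoter, which is active in skeletal muscle fibres. The sources used here do not say whether the Ppp3r1 WT mice carry the Cre transgene or the floxed allele, and give no ages. Each line was a cohort of its own, so line, cohort and any processing batch cannot be told apart in any value below. Every array is a separate mouse, so the spread is between animals. The arrays are called WT or KO as labelled, although Ppp3cb itself does not follow these labels, as described below.

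Skeletal muscle mixes slow and fast fibres. Slow fibres carry the type I myosin heavy chain and slow forms of the troponins and myosin light chains, pump calcium with the cardiac isoform of the reticulum ATPase, and hold many mitochondria. Fast fibres run, in mouse, through the IIa, IIx and IIb myosins (Myh2, Myh1 and Myh4) with falling oxidative capacity. Gastrocnemius is mainly a fast muscle with a deep, redder region, and calcineurin acting on NFAT transcription factors is known to favour the slow programme. The tissue label was set against its markers. The 15 skeletal muscle identity genes, among them Ckm, Acta1 and Mylpf, had a median log2 level of 13.32 to 13.39 in Ppp3cb WT and 13.02 to 13.46 in Ppp3r1 WT arrays.

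Between the cohorts, 5080 of 15292 clusters differed at an adjusted p under 0.05 (limma with Benjamini-Hochberg adjustment), which is 33.2% of those tested. Of these, 3606 (23.6%) were higher and 1474 (9.64%) lower in Ppp3cb WT. At an absolute log2 difference of at least 1, 127 were higher and 75 lower, together 1.32%. In 4784 clusters (31.3%) the groups of 4 arrays did not overlap, with all Ppp3cb WT arrays above in 22.6% and below in 8.66%. The split by direction rested on the scaling of the arrays. With the arrays centred on their medians 1495 clusters were higher and 3764 lower, and cyclic loess, added after the data were seen, gave 1599 higher and 1548 lower. The median difference over all clusters was 0.10 as deposited and -0.07 after centring, so group differences below are read against those medians.

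The difference also followed the expression level. In the lowest of 10 deciles by level its median was -0.16, it reached 0.26 in decile 7, and it was 0.11 in decile 10. Clusters under the threshold had array medians of 5.31 to 5.40 in Ppp3cb WT, against 5.47 to 5.63 in Ppp3r1 WT, so dim features were brighter in every Ppp3r1 WT array. Tested clusters had array medians of 7.85 to 7.95 in Ppp3cb WT and 7.69 to 7.77 in Ppp3r1 WT. What causes this relation was not tested. Calls that held with the same sign under all 4 scalings (deposited, quantile over the 8 arrays, centred, cyclic loess) numbered 1825, or 11.9%, with 1106 higher (7.23%) and 719 lower (4.7%). Without animals 23 and 24 all 1825 kept their sign and 1666 were still called. The filter used the mean of all 8 arrays, so 652 tested clusters, among them 273 of the 1474 called lower and 55 of the 3606 called higher, had 1 group mean under the threshold and passed through the other group.

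**Figure D1:**
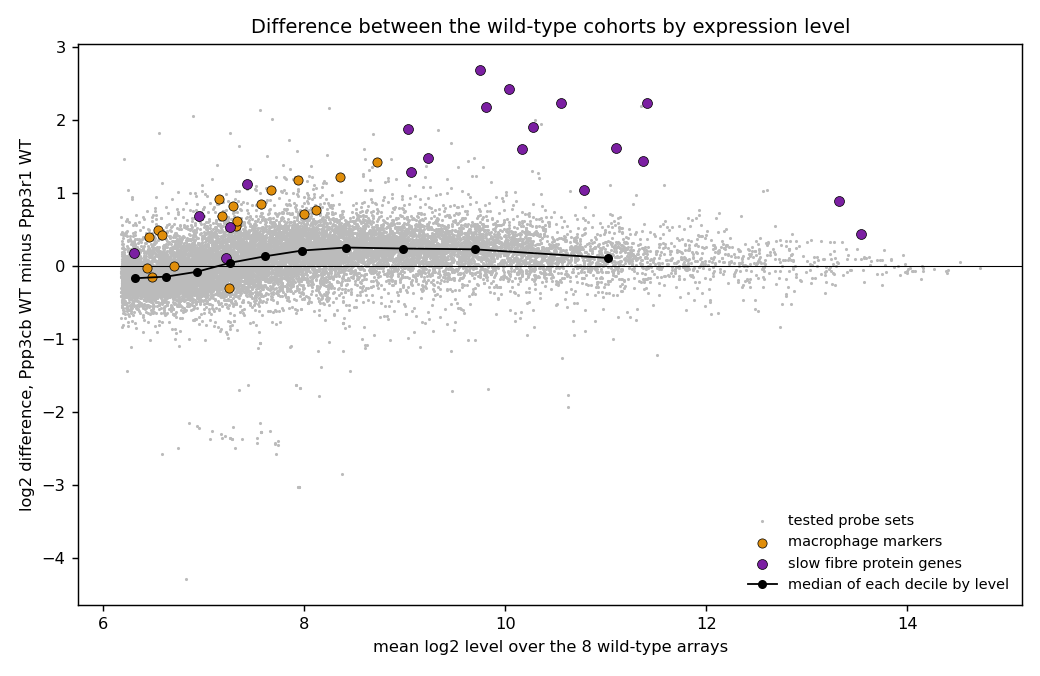
Each grey point is a tested cluster, placed by its mean log2 level over the 8 wild-type arrays (x) and its log2 difference, Ppp3cb WT minus Ppp3r1 WT (y). The black line joins the medians of the deciles by level, from -0.16 in the lowest to 0.26 in decile 7; slow fibre genes (purple) lie up to 2.70 above 0 and macrophage markers (orange) up to 1.43.

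The levels of the calcineurin genes bear on the labels. Ppp3cb, the beta catalytic subunit, had log2 levels of 11.80, 11.67, 10.37 and 10.23 in Ppp3cb WT animals 12, 2, 23 and 24, against 11.70, 11.47, 11.55 and 11.69 in Ppp3r1 WT animals. Animals 23 and 24 were thus the only wild-type arrays under 11, at a level shared with the KO-labelled animals 18 (10.48) and 5 (10.22), while KO-labelled animals 6 and 9 read 11.74 and 11.61. The labels of these Ppp3cb arrays were not changed, and what leaving out animals 23 and 24 did is given where it ended the call of a named gene, or moved its difference or the count of calls in a list with over 3 calls in that direction by over 1.5 times. These animals were singled out by their Ppp3cb level, so no Ppp3cb value without them is given as a result. With all 8 arrays the Ppp3cb difference was -0.59 ± 0.30 (SE, adjusted p = 0.141), and it passed when animal 12 was left out (-0.85, adjusted p = 0.0385).

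The other calcineurin subunits did not pass the test. Ppp3r1, the regulatory subunit, differed by 0.22 (adjusted p = 0.241), Ppp3ca, the alpha catalytic subunit, by -0.17 (adjusted p = 0.218), and Ppp3cc, the gamma catalytic subunit, by 0.19 (adjusted p = 0.307). These signs turned for Ppp3r1 and Ppp3cc under cyclic loess and for Ppp3ca without animals 23 and 24, and Ppp3r1 passed without those animals (0.45, adjusted p = 0.0317). Ppp3cc then differed by 0.35 and did not pass (adjusted p = 0.0774). Rcan1, a feedback inhibitor of calcineurin that is induced through NFAT, had 10.38, 10.48, 10.17 and 8.59 in Ppp3cb WT, against 9.60, 9.58, 9.78 and 9.57 in Ppp3r1 WT. Only animal 24 lay under the Ppp3r1 WT arrays. The difference of 0.28 did not pass (adjusted p = 0.517). Without animal 24 it was 0.72, and without animals 23 and 24 it was 0.80. Animal 24 had the low Rcan1 value, so a rise on leaving it out was built in and is not a result. Of 20 calcineurin and NFAT genes tested, 4 were called higher and 1 lower (25.0%, where 33.5% of all genes were called), with a median of 0.04 that turned negative under repeated quantile normalization, centring and cyclic loess. Akap5, which anchors calcineurin, was lower in Ppp3cb WT under all 4 scalings (-0.38, adjusted p = 0.0169), though not without animal 12 (adjusted p = 0.0512) or animal 336 (adjusted p = 0.0521). Rcan2 (0.55, adjusted p = 0.0301) and Nfat5 (0.35, adjusted p = 0.0202) were called higher as deposited but not under the other 3 scalings or without animals 23 and 24. Both also lost the call without animal 336 or animal 413, Rcan2 without animal 23, 24 or 415, and Nfat5 without animal 2.

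Slow fibre genes had the largest median difference of the 49 gene lists under each of the 4 scalings. Of 20 tested, 18 were higher in Ppp3cb WT and 0 lower, where 33.5% of 13948 genes were called and 23.8% were called higher. Of the 20, 13 held under all 4 scalings, where 7.29% of all genes were called higher and 4.52% lower. In 15 of the 20 the 4 Ppp3cb WT arrays lay above all 4 Ppp3r1 WT arrays, and 31.5% of all genes parted the groups in this way in either direction. The median difference was 1.46, and 1.28 to 1.46 across the scalings, against 0.10 over all genes. Without animals 23 and 24 the median was 1.64 with 17 called higher. Members that did not pass were Sln, which encodes sarcolipin (0.19, adjusted p = 0.428), and Myh7b (0.11, adjusted p = 0.502, -0.05 after centring). The Myh7b difference was 0.06 without animals 23 and 24.

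Csrp3, the muscle LIM protein of the Z-disc that is enriched in slow fibres, had log2 levels of 10.45, 10.91, 11.06 and 11.97 in Ppp3cb WT, against 8.45, 8.83, 8.54 and 7.79 in Ppp3r1 WT. The groups did not overlap, and the gap between them exceeded the range within either. The difference was 2.70 ± 0.28 (SE, adjusted p = 0.00049), a 6.48-fold higher level. Ankrd2, an ankyrin repeat protein that responds to stretch, had 11.95, 12.37, 12.61 and 13.19 in Ppp3cb WT and 10.46, 10.91, 10.50 and 9.32 in Ppp3r1 WT. It was 2.23 ± 0.30 higher (adjusted p = 0.001).

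Myoz2, calsarcin-1, binds calcineurin at the Z-disc of slow and cardiac muscle. Its levels were 11.02, 12.05, 11.93 and 11.72 in Ppp3cb WT, against 9.72, 9.82, 9.80 and 8.41 in Ppp3r1 WT, a difference of 2.24 ± 0.30 (adjusted p = 0.000984). Myl2, the slow regulatory myosin light chain, read 10.64, 12.21, 11.37 and 10.79 in Ppp3cb WT and 9.49, 9.16, 9.69 and 6.98 in Ppp3r1 WT (difference 2.42 ± 0.51, adjusted p = 0.00583). Tnnc1, slow troponin C, read 10.40, 11.98, 11.14 and 10.06 in Ppp3cb WT and 8.97, 9.13, 9.78 and 6.99 in Ppp3r1 WT (difference 2.18 ± 0.52, adjusted p = 0.00984). In all 3 genes animal 415 was the lowest array, below its own group as well. Animal 2 was the highest.

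Smaller differences were found for Casq2, the slow and cardiac calsequestrin that stores calcium (1.13 ± 0.20, adjusted p = 0.00283), Myom3, an M-band protein (1.30 ± 0.21, adjusted p = 0.00195), and Fhl1, a LIM protein (0.89 ± 0.13, adjusted p = 0.00153). Each was called under all 4 scalings and without animals 23 and 24. In bulk tissue, more slow fibres and more slow transcript per fibre cannot be told apart.

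Because these genes moved together, their promoters are shown with the letters that match known muscle or core motifs. Sequences are RefSeq's on GRCm38.p6, from 250 bases before to 50 after an annotated start, and 18 of the 20 tested slow genes matched the promoter table. Where a gene has several annotated starts, the one with the most motifs is shown, and Myh7 and Myl2 have 2 each. A gene counts below if any of its starts holds the motif. Each motif was searched on both strands. The core promoter string TATAAA occurred in 15.7% of all genes with a promoter and in 5 of the 18 slow genes, Myl2 and Ankrd2 among them. The E-box form CAGCTG, bound by MyoD family factors, occurred in 18.3% of all genes and in 7 of the 18, Myl2 included. The M-CAT string CATTCC, bound by TEAD factors, occurred in 16.6% of all genes and in 3 of the 18, Myh7 and Tnnc1 among them. The MEF2 form CTAAAAATA occurred in 0.588% of all genes and in 1 of the 18, Casq2. Counted per promoter, TATAAA occurred in 13.6% of all promoters and 19.2% of the 26 slow gene promoters, and CAGCTG in 16.3% and 38.5%. For CATTCC these shares were 14.7% and 11.5%, and for CTAAAAATA 0.518% and 3.85%. No motif overlapped another in the sequences shown. Capitals mark the matches, which read as the reverse complement where they lie on the other strand, and a match describes letters only.
Myh7 (chr14:54994577-54994876, minus strand): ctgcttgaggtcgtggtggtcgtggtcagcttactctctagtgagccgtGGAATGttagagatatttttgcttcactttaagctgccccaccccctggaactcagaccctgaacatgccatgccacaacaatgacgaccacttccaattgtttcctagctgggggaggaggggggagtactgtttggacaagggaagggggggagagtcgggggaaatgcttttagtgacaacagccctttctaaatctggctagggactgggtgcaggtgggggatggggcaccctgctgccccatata
Myl2 (chr5:122092939-122093238, plus strand): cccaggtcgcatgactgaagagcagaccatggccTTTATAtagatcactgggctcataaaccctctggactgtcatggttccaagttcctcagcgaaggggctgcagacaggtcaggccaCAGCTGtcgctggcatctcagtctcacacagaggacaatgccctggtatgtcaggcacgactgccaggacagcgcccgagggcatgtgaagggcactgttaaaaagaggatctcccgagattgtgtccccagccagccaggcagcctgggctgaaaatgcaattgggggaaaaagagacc
Tnnc1 (chr14:31208062-31208361, plus strand): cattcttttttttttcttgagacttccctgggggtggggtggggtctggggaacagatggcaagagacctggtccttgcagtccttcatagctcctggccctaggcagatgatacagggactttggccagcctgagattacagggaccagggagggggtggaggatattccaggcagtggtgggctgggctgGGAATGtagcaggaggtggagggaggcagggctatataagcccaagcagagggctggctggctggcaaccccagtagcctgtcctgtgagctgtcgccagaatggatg
Ankrd2 (chr19:42035777-42036076, plus strand): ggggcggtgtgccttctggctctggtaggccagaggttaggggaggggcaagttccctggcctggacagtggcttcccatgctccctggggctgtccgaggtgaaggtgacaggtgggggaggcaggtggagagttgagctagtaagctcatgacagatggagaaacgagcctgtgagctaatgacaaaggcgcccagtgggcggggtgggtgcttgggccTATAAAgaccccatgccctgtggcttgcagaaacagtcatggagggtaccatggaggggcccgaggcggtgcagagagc
Casq2 (chr3:102086165-102086464, plus strand): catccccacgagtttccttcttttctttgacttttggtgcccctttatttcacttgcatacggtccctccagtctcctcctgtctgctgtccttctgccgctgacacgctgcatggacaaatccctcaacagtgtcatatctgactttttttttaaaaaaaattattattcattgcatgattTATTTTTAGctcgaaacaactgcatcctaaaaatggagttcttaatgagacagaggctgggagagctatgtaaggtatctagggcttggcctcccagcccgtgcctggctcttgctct

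The adult myosins showed how far along the fibre range the cohorts parted. Myh7, the type I chain, had 10.83, 12.66, 11.07 and 10.37 in Ppp3cb WT, against 9.74, 9.65, 10.36 and 7.54 in Ppp3r1 WT. The lowest Ppp3cb WT array lay just above the highest Ppp3r1 WT array. The difference was 1.91 ± 0.56 (adjusted p = 0.0223, 3.76-fold), and 2.42 without animals 23 and 24 (adjusted p = 0.0166). It lost the call under cyclic loess (1.73, adjusted p = 0.0648), without animal 2 (1.44, adjusted p = 0.0501) and without animal 336 (2.02, adjusted p = 0.0503), always in the same direction.

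Myh2, the IIa chain, had 12.60, 13.18, 13.23 and 13.34 in Ppp3cb WT and 12.37, 12.40, 12.15 and 11.30 in Ppp3r1 WT. The groups did not overlap, and the difference was 1.03 ± 0.22 (adjusted p = 0.00621). Myh1, the IIx chain, was 0.44 ± 0.12 higher (adjusted p = 0.0198), but animal 12 (12.64) fell among the Ppp3r1 WT arrays (12.47 to 12.76). Its call was lost under centring (0.27, adjusted p = 0.146), under cyclic loess (0.40, adjusted p = 0.0589), without animals 23 and 24 (0.28, adjusted p = 0.0994), without animal 336 (0.45, adjusted p = 0.0508) and without animal 413 (0.43, adjusted p = 0.0538). Myh4, the IIb chain, averaged 14.02 ± 0.09 in Ppp3cb WT and 14.08 ± 0.05 in Ppp3r1 WT (SD, n = 4 each). Its difference of -0.07 did not pass as deposited (adjusted p = 0.318), was 0.01 under quantile normalization, and was called at -0.24 after centring. Levels of different genes are not set against each other, since their probes differ.

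**Figure D2:**
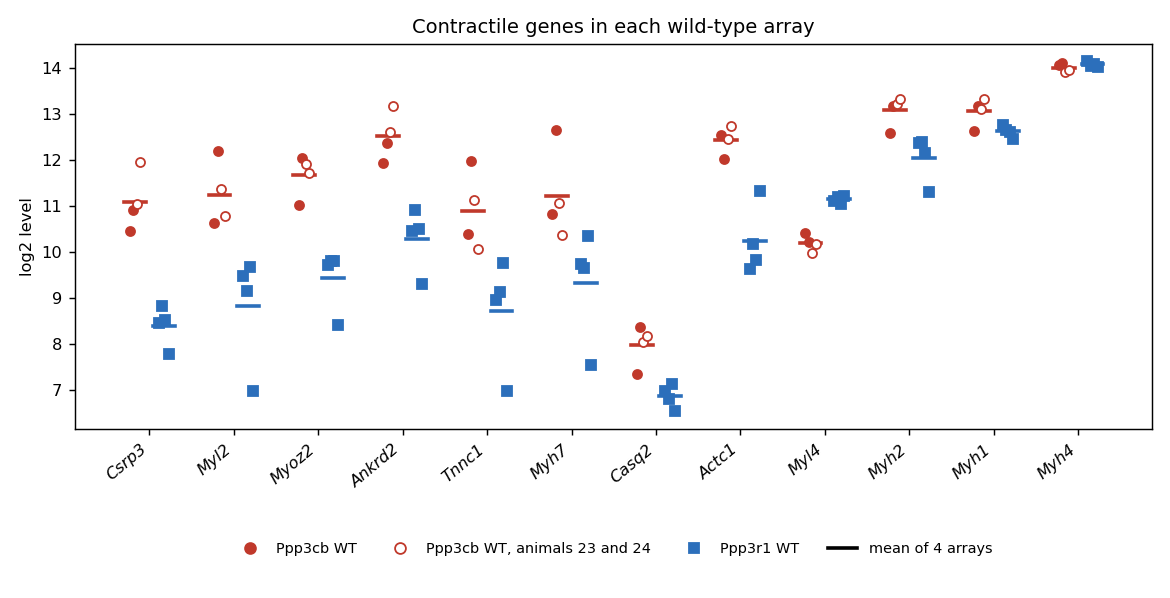
Log2 level (y) of 12 contractile genes in each wild-type array, Ppp3cb WT as red circles (open for animals 23 and 24) and Ppp3r1 WT as blue squares, with bars at the means of 4 arrays. Csrp3, Myl2, Myoz2, Ankrd2, Tnnc1, Myh7 and Myh2 do not overlap between cohorts, Myl4 is lower in Ppp3cb WT, and Myh4 lies near 14 in all 8 arrays.

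Fast fibre genes did not mirror the slow ones. Of 18 tested, 2 were called higher (Myh2 and Myh1) and 3 lower, together 27.8%, where 33.5% of all genes were called. The median was -0.06 and stayed at or under 0 across scalings (-0.23 to -0.00). The list's median level was 13.49 to 13.86 in Ppp3cb WT arrays and 13.67 to 13.79 in Ppp3r1 WT arrays. Array maxima were 14.93 to 15.02, so signals near the top of the range limit what can be seen. The 3 lower were Pgam2, muscle phosphoglycerate mutase (-0.28 ± 0.07, adjusted p = 0.0091), Mylk2, the fast-muscle light chain kinase (-0.33, adjusted p = 0.0385), and Pvalb, the calcium buffer parvalbumin (-0.18, adjusted p = 0.0286). Pgam2 was called under all 4 scalings and without animals 23 and 24 (-0.36), but not with all 16 arrays fitted (adjusted p = 0.0870). Without those animals 1 fast gene was called in each direction. Mylk2 then differed by -0.09 (adjusted p = 0.276) and Pvalb by -0.09 (adjusted p = 0.158). Both lost the call without any 1 of animals 23, 24, 336, 413 and 415, and Mylk2 also without animal 334.

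Among 12 developmental and cardiac sarcomere genes, 8 were higher and 1 lower, 75.0% called where 33.5% of all genes were. Of the 8, Myh3 passed the filter through Ppp3cb WT alone, so its call gives no support of its own. Under all 4 scalings 1 was called in each direction. The counts were 4 and 1 without animals 23 and 24. Actc1, cardiac alpha-actin, had 12.56, 12.03, 12.45 and 12.75 in Ppp3cb WT and 9.64, 10.18, 9.83 and 11.34 in Ppp3r1 WT, a difference of 2.20 ± 0.29 (adjusted p = 0.000989). Myl4, the embryonic and atrial light chain, went the other way with 10.41, 10.22, 9.99 and 10.18 in Ppp3cb WT, against 11.11, 11.21, 11.05 and 11.23 in Ppp3r1 WT. It was 0.95 lower (log2 -0.95 ± 0.10, adjusted p = 0.00049), and no array of either group came within 0.5 of the other group. Actn2, the Z-disc alpha-actinin found in all fibre types, was 1.04 ± 0.17 higher (adjusted p = 0.00199), one of 3 muscle identity genes called, all higher, of 15 whose median was 0.03.

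Lists of oxidative metabolism leaned higher in Ppp3cb WT, by less per gene than the slow fibre genes. Their counts are read against all genes, of which 23.8% were called higher and 7.29% higher under all 4 scalings. By level, 571 of 1529 clusters were called higher in decile 7, 540 of 1529 in decile 9 and 380 of 1530 in decile 10. Ketone body and branched-chain amino acid catabolism had 17 of 18 genes higher and 0 lower, 8 of them under all 4 scalings, with a median of 0.47 (0.30 to 0.47 across scalings). Bdh1, which interconverts the ketone bodies, read 8.69, 9.41, 9.88 and 9.62 in Ppp3cb WT and 8.02, 7.93, 7.81 and 7.43 in Ppp3r1 WT. It was 1.61 ± 0.22 higher (adjusted p = 0.001). Oxct1, which activates ketone bodies for oxidation, was 0.93 ± 0.13 higher (adjusted p = 0.00116). Bckdhb and Dbt, subunits of the branched-chain ketoacid dehydrogenase, were 0.82 and 0.84 higher (adjusted p = 0.000975 and 0.001).

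Fatty acid uptake and oxidation had 22 of 34 genes higher and 0 lower, 8 under all 4 scalings, with a median of 0.48 (0.31 to 0.48). Lpl, the lipase that releases fatty acids from circulating lipoproteins, read 11.11, 11.96, 12.06 and 12.03 in Ppp3cb WT and 10.79, 10.84, 10.91 and 10.69 in Ppp3r1 WT (difference 0.98 ± 0.18, adjusted p = 0.00323). Acadm, medium-chain acyl-CoA dehydrogenase, was 0.66 ± 0.10 higher (adjusted p = 0.00151) and Echs1, enoyl-CoA hydratase, 0.69 ± 0.12 (adjusted p = 0.00321). The list's median fell to 0.30 with 11 called when animals 23 and 24 were left out.

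The citrate cycle and pyruvate oxidation had 15 of 28 genes higher and 0 lower, 6 under all 4 scalings (median 0.30, 0.13 to 0.30). Idh2, the mitochondrial isocitrate dehydrogenase that yields NADPH, was 1.12 ± 0.23 higher (adjusted p = 0.00505), with animal 415 the lowest array at 9.87. Mdh1, cytosolic malate dehydrogenase, was 0.66 higher (adjusted p = 0.00371) and Pdha1, the E1 subunit of pyruvate dehydrogenase, 0.53 higher (adjusted p = 0.00395). Complex I had 17 higher and 2 lower of 35 (5 and 2 under all 4 scalings), and complexes II to V had 22 higher and 0 lower of 41 (6 under all 4). Both had medians of 0.23, and 0.06 after centring. Under cyclic loess the medians were 0.11 in complex I and 0.15 in complexes II to V. When animals 23 and 24 were left out the calls fell to 10 higher in complex I and 10 in complexes II to V. Ndufb8, a complex I subunit, was 0.58 ± 0.11 higher (adjusted p = 0.00423). Ndufs5, a subunit of the same complex, was lower, with 7.48, 7.88, 7.78 and 8.22 in Ppp3cb WT and 8.74, 8.44, 8.56 and 8.55 in Ppp3r1 WT (-0.73 ± 0.14, adjusted p = 0.00423).

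Cox8b, the muscle form of a cytochrome oxidase subunit, was 0.34 ± 0.06 higher (adjusted p = 0.00231) and Uqcrfs1, the Rieske iron-sulfur protein of complex III, 0.66 ± 0.12 (adjusted p = 0.00372). Mitochondrial ribosomal proteins had 25 of 53 higher and 0 lower, 5 under all 4 scalings, with a median of 0.28 (0.11 under cyclic loess), and 14 were higher without animals 23 and 24. Mrpl20, a protein of the large mitochondrial ribosomal subunit, stood out with 8.82, 8.63, 8.91 and 8.67 in Ppp3cb WT against 7.41, 7.42, 7.31 and 7.37 in Ppp3r1 WT. Its difference of 1.38 ± 0.09 (adjusted p = 5.46e-05) exceeded the spread within either group by far. Fis1, a mitochondrial fission factor, was lower (-0.39 ± 0.09, adjusted p = 0.00764), while 12 of 26 genes of mitochondrial dynamics and biogenesis were higher and 2 lower.

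Of 25 regulators of fibre type and oxidative capacity, 11 were higher and 0 lower, where 23.8% of all genes were called higher. Only 2 held under all 4 scalings, and the median was 0.01 under cyclic loess. Those 2 were Ppara, the fatty-acid-sensing nuclear receptor, and Ppargc1a, the coactivator PGC-1 alpha. Ppara read 8.36, 8.87, 8.90 and 8.48 in Ppp3cb WT and 7.55, 7.57, 7.46 and 7.58 in Ppp3r1 WT (1.11 ± 0.13, adjusted p = 0.000499). Ppargc1a read 10.54, 10.65, 11.08 and 10.68 in Ppp3cb WT and 10.26, 9.97, 9.96 and 10.39 in Ppp3r1 WT (0.60 ± 0.13, adjusted p = 0.00807). Prox1, a homeobox factor expressed in slow fibres, was 0.66 higher (adjusted p = 0.0143, 0.0540 after centring). Esrrg, an oestrogen-related receptor, was 0.60 higher (adjusted p = 0.0131, 0.143 under cyclic loess and 0.0850 without animals 23 and 24).

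Glycolysis was split, with 3 genes higher and 3 lower of 14 (1 and 2 without animals 23 and 24). Together 42.9% were called, where 33.5% of all genes were. Ldhb, the lactate dehydrogenase subunit of oxidative tissue, read 9.40, 10.55, 10.72 and 10.55 in Ppp3cb WT and 8.77, 8.87, 8.93 and 7.88 in Ppp3r1 WT (1.69 ± 0.28, adjusted p = 0.00242). Pfkfb3, which makes the activator of phosphofructokinase, read 11.56, 10.76, 10.20 and 9.74 in Ppp3cb WT and 11.61, 11.42, 11.75 and 11.51 in Ppp3r1 WT. Its difference of -1.003 ± 0.29 (adjusted p = 0.0206) was lost without animals 23 and 24 (-0.41, adjusted p = 0.0914), without animal 23 alone (-0.88, adjusted p = 0.0501) and without animal 413 (-0.94, adjusted p = 0.0626). Gbe1, the glycogen branching enzyme, was 1.21 ± 0.13 higher (adjusted p = 0.00049), one of 4 glycogen genes called higher of 15, with 0 lower. Atp1b1, the sodium pump beta subunit of slow and oxidative muscle, was 1.12 ± 0.14 higher (adjusted p = 0.000943).

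**Figure D3:**
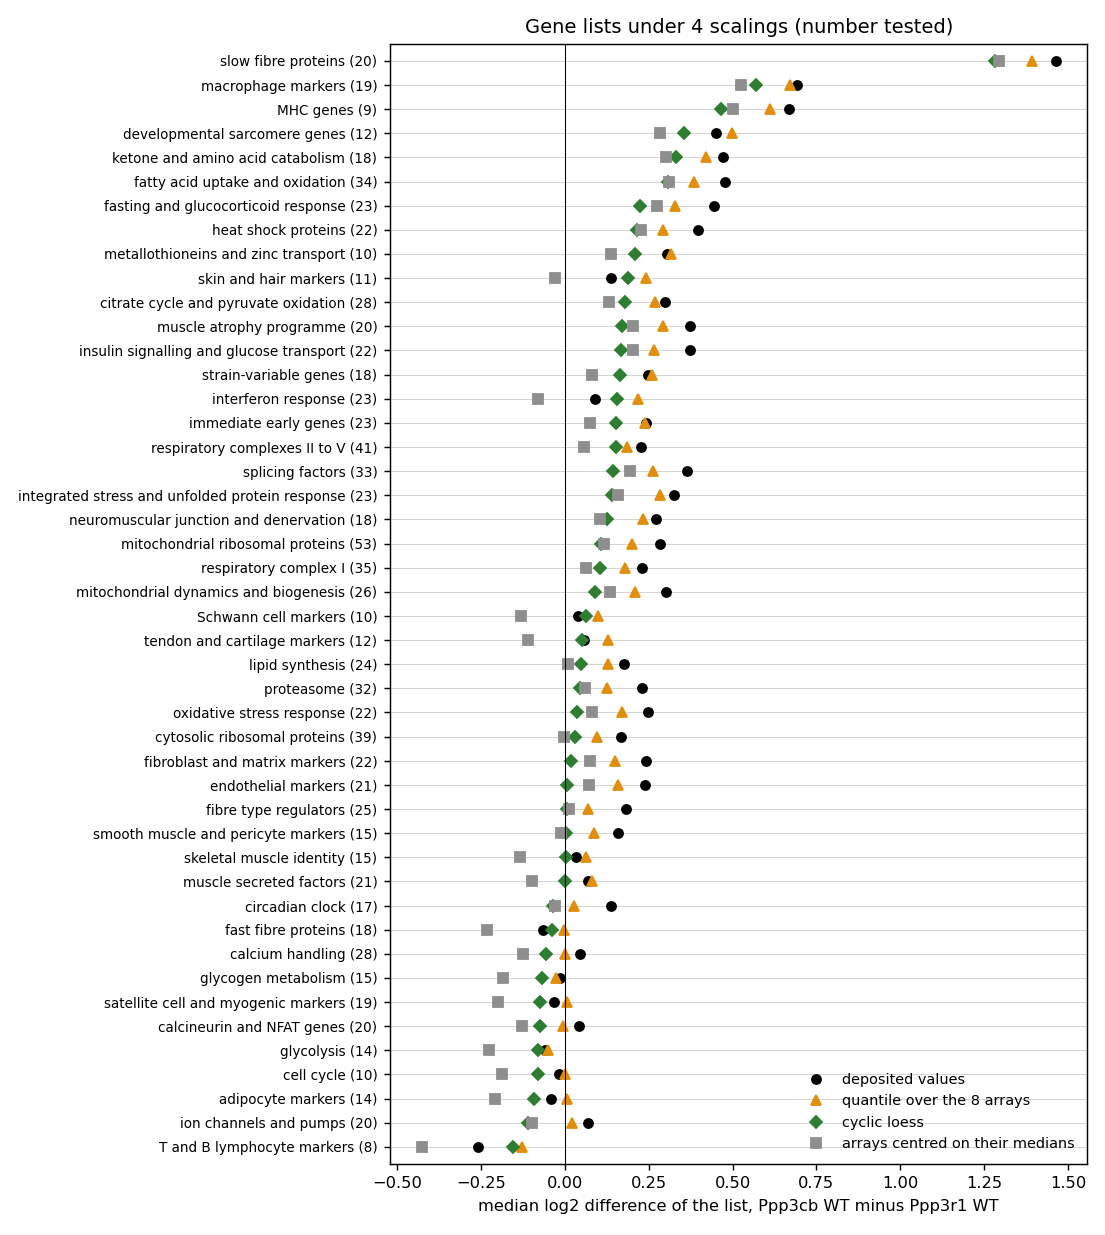
Median log2 difference (x), Ppp3cb WT minus Ppp3r1 WT, of each gene list with at least 8 tested genes (y, number tested in brackets) under 4 scalings, each with its own symbol. Slow fibre proteins lie at 1.28 to 1.46 under every scaling, macrophage markers at 0.52 to 0.69, and most other lists within 0.5 of 0, many changing sign under centring.

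Markers of other cells in the muscle were read against the 33.5% of all genes called. Macrophage markers had 13 of 19 tested genes higher and 0 lower, 10 under all 4 scalings, with a median of 0.69 (0.52 to 0.69). The median level of the list was 7.16 to 7.82 in Ppp3cb WT arrays and 6.85 to 7.18 in Ppp3r1 WT arrays, so the ranges overlapped slightly. C1qb, a chain of complement C1q made by macrophages, read 9.13, 8.58, 9.05 and 9.12 in Ppp3cb WT and 7.42, 7.83, 7.77 and 7.95 in Ppp3r1 WT (1.23 ± 0.15, adjusted p = 0.000589). Lyz2, lysozyme of myeloid cells, read 9.73, 8.68, 9.35 and 9.98 in Ppp3cb WT and 7.56, 8.22, 8.00 and 8.25 in Ppp3r1 WT (1.43 ± 0.24, adjusted p = 0.0025). For both genes animal 2 was the lowest Ppp3cb WT array and still above every Ppp3r1 WT array.

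Cd68, a lysosomal protein of macrophages, was 1.04 ± 0.13 higher (adjusted p = 0.00082), F13a1, coagulation factor XIII of tissue macrophages, 1.19 ± 0.16 (adjusted p = 0.001), and Mrc1, the mannose receptor, 0.93 ± 0.15 (adjusted p = 0.00231). Without animals 23 and 24 the list's median was 0.51 with 9 genes called. MHC genes had 5 higher and 1 lower of 9, with a median of 0.67 (0.39 without animals 23 and 24). H2-Ab1, a class II chain of antigen-presenting cells, was 1.06 ± 0.25 higher (adjusted p = 0.0101), and 0.62 without animals 23 and 24, with animal 2 (7.20) among the Ppp3r1 WT arrays (6.65 to 7.31). H2-Q4, a class I gene, was 1.01 ± 0.17 higher (adjusted p = 0.0024), and probes for class I genes can share sequence with their relatives.

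Cpa3, the carboxypeptidase of mast cells, read 7.42, 6.30, 8.52 and 7.62 in Ppp3cb WT and 5.54, 5.56, 5.56 and 5.89 in Ppp3r1 WT. The groups did not overlap, but the Ppp3r1 WT values lie at the level of clusters under the threshold, and the cluster passed the filter through Ppp3cb WT alone, so no size is given for its difference. The 6 neutrophil and mast cell markers tested were split, with the mast cell proteases Tpsb2 (0.38) and Mcpt4 also called higher, S100a9 (-0.32) and Camp, of neutrophils, called lower, and Kit at -0.02. Mcpt4 and Camp passed the filter through 1 group alone as well. Leaving out animals 23 and 24 left 1 call higher and 0 lower. Lymphocyte markers had 0 higher and 3 lower of 8, where 9.64% of all genes were called lower. Of the 3, Cd4 lay in decile 1 by level, where 23.1% of clusters were called lower, and Ighm and Igha lay in deciles 5 and 7, where 7.46% and 3.47% were. Ighm, the immunoglobulin mu chain, was lower (-0.80 ± 0.13, adjusted p = 0.00195). Igha, the alpha chain, read 8.20, 8.67, 6.96 and 8.41 in Ppp3cb WT and 9.33, 9.16, 9.43 and 8.65 in Ppp3r1 WT (-1.08 ± 0.30, adjusted p = 0.0189), and its call was lost without animal 336 (adjusted p = 0.0534) or animal 413 (adjusted p = 0.0612). Its difference was -0.71 without animal 23, and also -0.71 without animals 23 and 24.

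Fibroblast and matrix markers had 9 higher and 0 lower of 22 (40.9%), and endothelial markers 7 and 0 of 21 (33.3%), shares near the 33.5% of all genes. Endothelial markers had 4 higher without animals 23 and 24. Their medians of 0.24 became 0.02 and 0.01 under cyclic loess. Lum, lumican of the collagen matrix, was 0.98 ± 0.13 higher (adjusted p = 0.001), and Pdgfra, the receptor that marks fibro-adipogenic cells, 0.69 ± 0.13 (adjusted p = 0.00452). Sox17 and Eng, of endothelial cells, were 0.45 and 0.51 higher (adjusted p = 0.00464 and 0.00536). Among 10 Schwann cell markers 3 were called higher, a share near that of all genes, 5 lay above 0 and 5 below, and the median was 0.04 (-0.13 after centring). The called ones included Pmp22, a myelin protein, at 0.62 ± 0.10 (adjusted p = 0.0025) and Drp2, a dystrophin relative of myelinating cells, at 0.90 ± 0.19 (adjusted p = 0.00642). Adipocyte markers had 2 higher and 1 lower of 14, with 7 above 0 and 7 below. The lower one was Lep, leptin, with 6.86, 6.12, 6.45 and 5.99 in Ppp3cb WT and 6.78, 7.40, 7.18 and 8.05 in Ppp3r1 WT (-0.99 ± 0.24, adjusted p = 0.0108, 0.0635 with all 16 arrays fitted). Its values in animals 2 and 24 lie under the filter threshold of 6.18. In KO-labelled arrays Lep differed by 0.45 (adjusted p = 0.410).

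Tendon and cartilage markers had 0 higher and 1 lower of 12, erythrocyte markers 1 and 1 of 4, smooth muscle and pericyte markers 2 and 0 of 15, satellite cell and myogenic markers 2 and 2 of 19, skin and hair markers 0 and 1 of 11, and brown fat markers 2 and 0 of 4 (Ppara and Cox8b, which muscle also expresses). The part these cells have in the slow fibre and metabolic differences was not tested.

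Genes known to respond to fasting and glucocorticoids were mostly higher in Ppp3cb WT, 13 of 23 against 1 lower, with a median of 0.44 (0.22 to 0.44). Over all genes 23.8% were called higher, and 7.29% higher under all 4 scalings, where this list had 6 higher and 1 lower. Fkbp5, a chaperone induced by the glucocorticoid receptor, read 8.62, 9.53, 9.73 and 9.48 in Ppp3cb WT and 8.23, 7.58, 8.06 and 7.64 in Ppp3r1 WT (1.46 ± 0.22, adjusted p = 0.0015). Zbtb16, a zinc finger factor induced by the same receptor, read 10.74, 10.88, 10.67 and 10.84 in Ppp3cb WT and 9.93, 9.99, 9.82 and 10.09 in Ppp3r1 WT (0.83 ± 0.09, adjusted p = 0.000499). Pik3r1 and Foxo1, of insulin and FOXO signalling, were 0.69 and 0.68 higher (adjusted p = 0.00221 and 0.0036).

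Mt2, a metallothionein induced by glucocorticoids and zinc, read 10.14, 10.45, 12.50 and 12.24 in Ppp3cb WT and 8.92, 9.45, 9.32 and 9.82 in Ppp3r1 WT. The groups did not overlap, and animals 23 and 24 stood apart from the other Ppp3cb WT arrays. The difference of 1.95 ± 0.45 (adjusted p = 0.00849) was 0.92 without them (adjusted p = 0.01). The atrophy programme had 12 of 20 higher and 1 lower (median 0.37, 0.17 under cyclic loess), and insulin signalling and glucose transport 12 of 22 and 1 with the same medians. Of all genes, 23.8% were called higher, and 7.29% higher under all 4 scalings. Under all 4 scalings the atrophy list had 3 higher and 1 lower, and the insulin list 5 and 1. By level, 556 of 1529 clusters were called higher in decile 8 and 540 of 1529 in decile 9.

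Chaperone lists also leaned to Ppp3cb WT, against 23.8% of all genes called higher and 7.29% higher under all 4 scalings. By level, 556 of 1529 clusters were called higher in decile 8 and 540 of 1529 in decile 9. Heat shock proteins had 12 of 22 higher and 0 lower (median 0.40, 0.22 under cyclic loess), and the integrated stress and unfolded protein response 11 of 23 and 0 (median 0.33, 0.14 under cyclic loess, 7 called without animals 23 and 24). Hsp90b1 and Hspa5, chaperones of the endoplasmic reticulum, were 0.89 ± 0.12 and 0.63 ± 0.10 higher (adjusted p = 0.000975 and 0.00195). Dnajb4, a cytosolic co-chaperone, was 0.68 ± 0.11 higher (adjusted p = 0.00186). Splicing factors had 21 of 33 higher and 0 lower (median 0.36, 0.14 under cyclic loess). Under all 4 scalings 6 heat shock, 4 stress response and 8 splicing genes were called higher. Among 17 clock genes 4 were higher and 2 lower, a share of 35.3% that is near the 33.5% of all genes. Their median was 0.14 as deposited and -0.04 under cyclic loess. Nfil3, a repressor of the clock output, was 0.82 ± 0.16 higher (adjusted p = 0.00411), and Nr1d1, REV-ERB alpha, was 0.60 lower (log2 -0.60 ± 0.13, adjusted p = 0.0071). The sources used here do not give the hour of tissue collection.

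For 11 further lists the counts are given against the 33.5% of all genes that were called. Calcium handling had 7 higher and 4 lower of 28, lipid synthesis 4 and 1 of 24, the proteasome 14 and 2 of 32, cytosolic ribosomal proteins 12 and 3 of 39, and the oxidative stress response 6 and 1 of 22. Immediate early genes had 6 and 0 of 23, interferon response genes 5 and 0 of 23, cell cycle genes 2 and 0 of 10, neuromuscular junction and denervation genes 8 and 2 of 18, metallothioneins and zinc transporters 5 and 1 of 10, and ion channels and pumps 5 and 1 of 20. Leaving out animals 23 and 24 lowered the higher calls to 7 in the proteasome, 2 in the neuromuscular junction list, 2 in the interferon list, 3 among metallothioneins and 1 in the cell cycle list, which then had 2 lower, and the lower calls to 1 each in calcium handling and ribosomal proteins. Under all 4 scalings at most 4 genes of each of these lists were called higher, and the medians of the calcium handling, ribosomal protein, interferon, cell cycle and ion channel lists changed sign between scalings.

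Among muscle secreted factors 7 of 21 were higher and 3 lower (4 and 4 without animals 23 and 24). Together 47.6% were called, where 33.5% of all genes were. Ostn, musclin, a peptide released by muscle that binds the natriuretic clearance receptor, read 9.23, 9.36, 8.36 and 9.02 in Ppp3cb WT and 10.54, 10.56, 10.88 and 10.73 in Ppp3r1 WT (-1.69 ± 0.18, adjusted p = 0.000499). Igfbp5, an IGF-binding protein, read 11.53, 11.18, 10.62 and 10.25 in Ppp3cb WT and 12.11, 12.02, 12.14 and 12.19 in Ppp3r1 WT (-1.22 ± 0.21, adjusted p = 0.00263). The Ppp3r1 WT arrays lay within 0.2 of each other, and without animals 23 and 24 the Igfbp5 difference was -0.76. Igfbp4, another binding protein of the family, was 0.67 ± 0.12 higher (adjusted p = 0.00345).

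**Figure D4:**
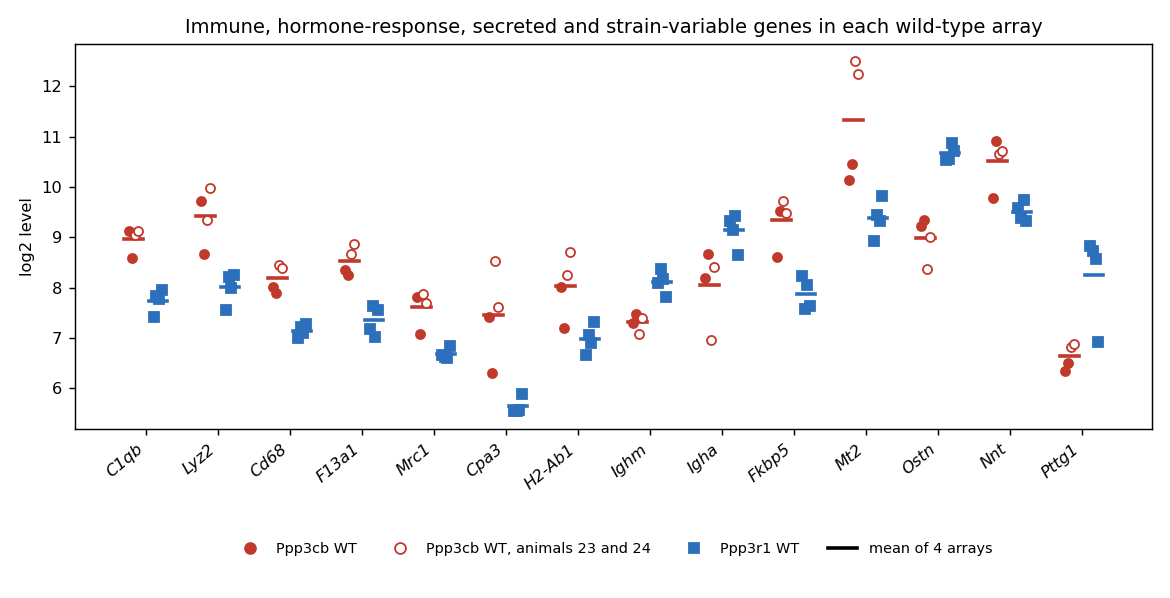
Log2 level (y) of 14 immune, hormone-response, secreted and strain-variable genes in each wild-type array, drawn as for the contractile genes: red circles for Ppp3cb WT (open for animals 23 and 24), blue squares for Ppp3r1 WT, bars at the means of 4 arrays. C1qb, Lyz2, Cd68, F13a1, Mrc1, Cpa3, Fkbp5, Mt2 and Nnt are higher without overlap in Ppp3cb WT, and Ighm, Ostn and Pttg1 lower.

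Outside these lists, the largest differences by the naming rule in the higher direction included Prg4, lubricin of synovium and tendon sheath (2.17 ± 0.36, adjusted p = 0.00222) and Hal, histidine ammonia-lyase (2.14 ± 0.23, adjusted p = 0.000499). Prg4 stood at 10.07 and 10.15 in animals 23 and 24, against 8.40 and 8.73 in animals 12 and 2, and at 6.78 to 7.66 in Ppp3r1 WT, and its difference was 1.40 without animals 23 and 24. Lgi1, a secreted leucine-rich protein, ranged from 6.45 to 9.38 in Ppp3cb WT and from 5.01 to 6.53 in Ppp3r1 WT, so these groups overlapped, and with a Ppp3r1 WT mean of 5.87 it passed the filter through Ppp3cb WT alone. Rbp7, a retinol-binding protein of endothelium and fat, read 8.25, 9.18, 8.37 and 8.96 in Ppp3cb WT and 6.71, 6.66, 6.62 and 6.70 in Ppp3r1 WT (2.02 ± 0.18, adjusted p = 0.000308). Egln3, an oxygen-sensing prolyl hydroxylase, was 2.00 ± 0.24 higher (adjusted p = 0.000654).

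In the lower direction the rule gave Ces1d, a carboxylesterase that hydrolyses stored lipid, with 7.65, 7.31, 7.37 and 6.71 in Ppp3cb WT and 9.10, 8.96, 9.30 and 8.80 in Ppp3r1 WT (-1.78 ± 0.18, adjusted p = 0.00036). Pla2g7, the platelet-activating factor acetylhydrolase, read 10.52, 9.85, 9.77 and 8.84 in Ppp3cb WT and 11.46, 11.47, 11.42 and 11.66 in Ppp3r1 WT (-1.76 ± 0.25, adjusted p = 0.00129). Unc5a, a netrin receptor, was also lower (-1.16 ± 0.14, adjusted p = 0.000627). All 3 were called under all 4 scalings and without animals 23 and 24.

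Other genes that the rule gave in the lower direction included repeated sequences. Srsy, a Y-linked gene family, had 19 tested clusters, 16 with distinct values, and all were lower in Ppp3cb WT by -3.03 to -2.14. Its first-ranked cluster read 6.84, 8.10, 5.92 and 6.96 in Ppp3cb WT and 10.11, 10.12, 10.09 and 8.86 in Ppp3r1 WT. Gm7982, a predicted gene on chromosome 5 named after its values were seen, had 17 clusters, 12 with distinct values, all lower by -2.57 to -2.15. AI506816, also named after its values were seen, had 3.89, 3.93, 6.22 and 4.69 in Ppp3cb WT and 9.19, 8.67, 8.80 and 9.23 in Ppp3r1 WT. Of the 4 Ppp3cb WT values 3 lie below the array medians of clusters under the threshold, so it passed the filter through Ppp3r1 WT alone and no size is given for its difference.

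The miRNA genes Mir680-2 and Mir680-1 were lower by -1.92 ± 0.49 and -1.71 ± 0.39 (adjusted p = 0.0127 and 0.00827). The differences were -1.26 and -1.10 without animals 23 and 24. The mature sequence is shown because RefSeq (GRCm38.p6) gives the same one for both loci and for Mir680-3, and capitals mark the seed, bases 2 to 8. Whether the array's probes lie in it was not tested.
mmu-miR-680: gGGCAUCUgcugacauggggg

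Mir680-2 read 9.87, 10.79, 7.82 and 10.19 in Ppp3cb WT and 11.54, 11.95, 11.97 and 10.91 in Ppp3r1 WT. Ifnz, an interferon gene cluster member (-1.44, adjusted p = 0.0022), Nyx, nyctalopin of the retina (-1.26, adjusted p = 0.00579), and Vmn2r-ps104, a vomeronasal receptor pseudogene (-1.38, adjusted p = 0.00911, -0.87 without animals 23 and 24), were lower too. In Srsy, Mir680-1, Mir680-2, Ifnz, Nyx, Vmn2r-ps104 and Igha, animal 2 was the highest Ppp3cb WT array, animal 23 the lowest, and animal 415 the lowest Ppp3r1 WT array. Animal 415 also had the lowest Ppp3r1 WT median of clusters under the threshold (5.47), and animals 24 and 2 the highest Ppp3cb WT medians (5.40 and 5.38). The order was not the same throughout. Animal 24 lay below animal 2 in each of these genes, and animals 12 and 23 both had a median of 5.31. The part of this background in these signals was not tested.

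Genes known to vary among inbred mouse strains had 8 higher and 1 lower of 18 tested (where 33.5% of all genes were called), and 5 and 1 under all 4 scalings, where 11.8% of all genes were called. The counts were 8 and 3 without animals 23 and 24. Nnt, the mitochondrial transhydrogenase whose gene carries a deletion in C57BL/6J mice, read 9.78, 10.92, 10.67 and 10.72 in Ppp3cb WT and 9.59, 9.38, 9.74 and 9.32 in Ppp3r1 WT (1.01 ± 0.20, adjusted p = 0.00503). Animal 12 lay just above animal 413. Alad, a haem synthesis enzyme whose copy number differs among strains, read 10.82, 10.97, 11.34 and 10.75 in Ppp3cb WT and 9.83, 9.67, 9.57 and 9.72 in Ppp3r1 WT (1.27 ± 0.13, adjusted p = 0.00036). Pttg1, securin, read 6.35, 6.50, 6.82 and 6.87 in Ppp3cb WT and 8.82, 8.73, 8.56 and 6.91 in Ppp3r1 WT. It was 1.62 lower (log2 -1.62 ± 0.33, adjusted p = 0.00566), with animal 415 at the level of the other cohort. Cyfip2 (1.15, adjusted p = 0.00333) and Alpl (0.80, adjusted p = 0.00136) were higher. Genetic background was not tested beyond these levels.

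The calls were spread over the genome. On the autosomes and X, 28.6% to 40.6% of clusters were called, with chromosome 8 lowest and X highest. All 23 Y clusters were called, 20 of them lower, most of them Srsy. Among the 10 measured neighbours on either side of Ppp3cb, 6 of 20 were called, 1 under all 4 scalings (Sec24c, of vesicle coats, 0.47, adjusted p = 0.00701). Around Ppp3r1, 9 of 20 were called, 2 under all 4 scalings, among them Cep68, a centrosome protein (0.47, adjusted p = 0.0078). Over all clusters 33.2% were called, and 11.9% under all 4 scalings. The longest runs of neighbouring called genes held 8 genes.

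The KO-labelled arrays of both lines (4 Ppp3cb KO and 4 Ppp3r1 KO, none of them in the wild-type fit) compared the lines in other mice of the same cohorts. This is not a pure repeat, because genotype is added to line. Ppp3r1 KO muscle lacks the regulatory subunit, while Ppp3cb KO animals 6 and 9 had Ppp3cb levels of 11.74 and 11.61. There 7983 clusters (52.2%) were called, 4821 higher (31.5%) and 3162 lower (20.7%) in Ppp3cb KO. Of the 5080 clusters called in wild type, 98.4% had the same sign and 81.0% were called with it, while 81.6% of the clusters not called shared their sign. Of the 1825 called under all 4 scalings, 97.7% had the same sign and 85.8% were called with it. Under cyclic loess of the KO-labelled arrays 90.7% of the 5080 had the same sign and 50.4% were called with it, and 97.2% and 72.8% of the 1825, against 80.9% and 34.0% of all tested clusters. A line by genotype interaction over all 16 arrays was called for 0 clusters (limma), with 805 at an unadjusted p under 0.05 and a smallest adjusted p of 0.092. Lines and cohorts are shared by both comparisons, so this repeat does not separate them.

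Slow fibre genes had a median of 1.79 in KO arrays with 18 higher, against 1.46 in wild type. Csrp3 differed by 2.48 between Ppp3cb KO and Ppp3r1 KO, Myoz2 by 3.25 and Myh7 by 2.06. Myh2 differed by 3.24 there, against 1.03 in wild type, with 13.21 in Ppp3cb KO and 9.97 in Ppp3r1 KO. In wild type it averaged 13.09 in Ppp3cb WT and 12.05 in Ppp3r1 WT. Macrophage markers had a median of 0.34 in KO arrays and MHC genes 0.15, against 0.69 and 0.67 in wild type. Fasting and glucocorticoid genes had 0.13, against 0.44. The atrophy programme had 0.12 and insulin signalling and glucose transport 0.23, both against 0.37. Ostn differed by 0.44 (adjusted p = 0.591) and Mt2 by -0.79 (adjusted p = 0.195) in KO arrays, where wild type gave -1.69 and 1.95. These contrasts between wild-type and KO values passed the interaction test in 0 clusters.

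**Figure D5:**
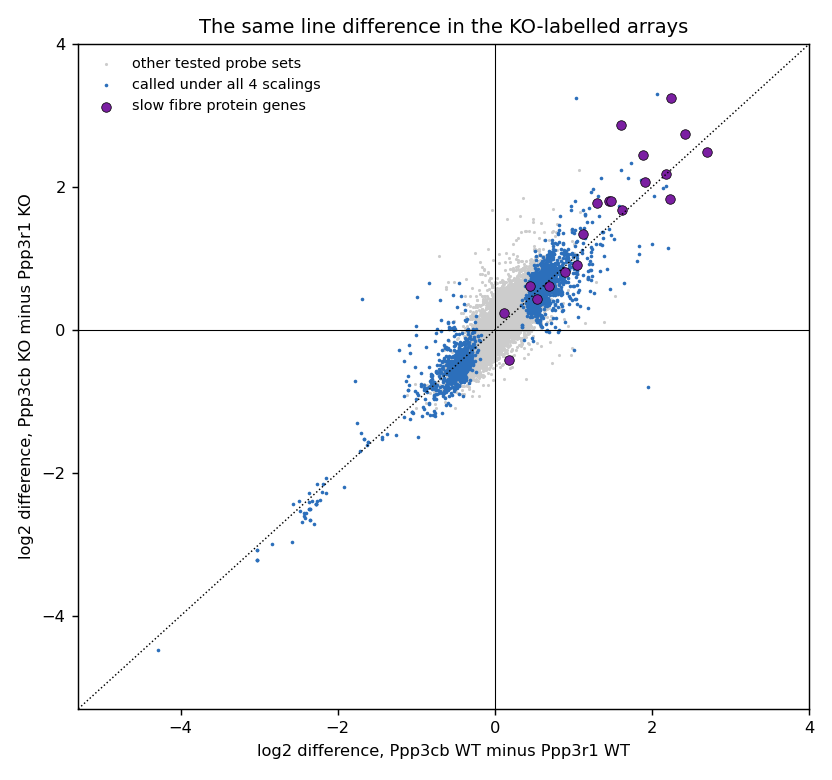
Log2 difference between the lines in wild-type arrays, Ppp3cb WT minus Ppp3r1 WT (x), against the same in KO-labelled arrays, Ppp3cb KO minus Ppp3r1 KO (y), 1 point per tested cluster. Blue points were called under all 4 scalings in wild type, 97.7% of them with the same sign in KO arrays, and purple points are slow fibre genes; the dotted line marks equal values.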

How the data were processed

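Gastrocnemius RNA of each mouse was hybridized to its own Affymetrix Mouse Gene 1.0 array, and the labels gave 4 arrays per group. Per the submitters' processing notes, the authors used GCOS 1.0 and RMA for the deposited log2 values. The sources used here do not state whether the lines were normalized as 1 set, the scan batches or the build. The deposited ratio columns, a normalized form of the same arrays per the file headers, and a second log2 table, of which 0 values differed, served as checks. The number of arrays limits the precision. The 8 wild-type arrays were fitted with limma 3.58.1 in R 4.3.3 (lmFit, eBayes with an intensity trend, 6 residual and a median of 6.42 prior degrees of freedom), and p-values were adjusted by Benjamini-Hochberg over 15292 clusters, with an adjusted p under 0.05 called.

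Clusters named by 1 symbol in the platform annotation were used, 21789 of 35557 probe sets, with 1621 carrying several symbols and 12147 not listed. For 119 tested clusters all values equalled those of another. Lists use 1 cluster per gene, the one with the highest mean. The 49 lists held 1198 entries, of which 996 were tested. The members, lists and rules were chosen with earlier results of these data known. Genes are named by rule: calcineurin genes, Rcan1 and adult myosins, the 12 largest called differences per direction that also pass after quantile normalization and keep their sign without animals 23 and 24, up to 6 called members per list by p, and called neighbours of the targeted genes. The lower direction was counted by gene instead of by cluster after its values were seen, because 1 multi-copy gene filled it, and a few rule members were left out for length. Gm7982 and AI506816 lie outside the rule. Alternatives covered scaling, filter, variance prior, array weights, threshold and left-out arrays. The fit was tested on simulated data.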

Additional observations from a re-analysis of the deposited data

Results flagged for a closer look

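Among 214 groups of 4 arrays looked at, 16 single values lay far from the other 3 of their group by Dixon's test, and chance alone flags about 1 in 20 groups.

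Of these, 7 were in Ppp3r1 WT animal 415: Myoz2 at 8.41, Idh2 at 9.87, Ldhb at 7.88, Pttg1 at 6.91, the Srsy cluster at 8.86 and the Gm7982 cluster at 8.03 were its group's lowest, and Cpa3 at 5.89 its highest. In Ppp3cb WT animal 12, Fhl1 at 13.50, Lpl at 11.11, Ldhb at 9.40 and Actn2 at 12.67 were the lowest of their group. In Ppp3cb WT, C1qb was lowest in animal 2 at 8.58, Hspa5 highest in animal 23 at 11.36, and Rcan1 lowest in animal 24 at 8.59. In Ppp3r1 WT, Rcan1 was highest in animal 413 at 9.78 and Rcan2 highest in animal 334 at 9.22.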

How the results depend on the processing

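No paired analysis was possible because the groups share no animal number. The count of 5080 clusters called was 3147 under cyclic loess (1599 higher), 2645 with a mean of at least 8 (2400 higher, 245 lower), 1747 at an adjusted p under 0.01 (1371 higher, 376 lower) and 1718 with an absolute log2 of at least 0.5 added (1294 higher, 424 lower). Centring gave 1495 higher and 3764 lower, repeated quantile normalization 874 lower, and no filter 2767 lower. Leaving out 1 array gave 2610 (without Ppp3r1 WT animal 413) to 5389 calls (1965 to 3688 higher, 645 to 1701 lower), and 2862 without animal 336; without animals 23 and 24 there were 4010. In KO-labelled arrays the 7983 calls became 6294 to 8510 with 1 array left out (3745 to 5352 higher, 2541 to 3158 lower); quantile normalization gave 1830 lower, centring 2409 higher and 4946 lower, and cyclic loess 2641 higher. Fewer clusters are tested or pass by construction under the stricter filter and thresholds; the cause of the other changes was not tested.

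Signs turned for Ppp3ca (0.016) and Myh4 (0.0084) without animals 23 and 24, and for Ppp3r1 (-0.0057) and Ppp3cc (-0.035) under cyclic loess. They also turned for Myh4 under quantile normalization (0.014) and for Myh7b after centring (-0.055). All of these genes were uncalled in the main fit, as was Ppp3cb. The Ppp3cb difference was 0.13 without animals 23 and 24. These animals were singled out by their low Ppp3cb level, so a rise on leaving them out was built in. That value is therefore not a result and cannot test the Ppp3cb difference. Signals near background or near the top of the range limit what can be seen, and the cohorts cannot be told apart from batch.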

Other observations

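Olfactory and vomeronasal receptor genes, sensory genes with little known role in muscle, were looked at after the data were seen. Of 1035 olfactory receptor clusters on the array 213 were tested, and 143 of them (67.1%) were called lower in Ppp3cb WT and 0 higher, 63 of them under all 4 scalings. Over all clusters 9.64% were called lower, and 23.1% in the lowest decile by level. Of the 213, 66 had a Ppp3cb WT mean under the filter threshold and passed through Ppp3r1 WT. Their median difference was -0.44, and -0.33 after quantile normalization, against 0.10 over all clusters. In KO-labelled arrays the median was -0.55. Of 12 vomeronasal receptor clusters tested, 8 were lower and 0 higher, with a median of -0.54. The mean level of the olfactory clusters ranged from 6.18 to 9.09 with a median of 6.54, and the median difference of all clusters was -0.16 in the lowest decile and -0.14 in decile 2.

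On chromosome 7, 2 of the longest runs of neighbouring called genes, of 8 genes each, were made up mostly of olfactory receptors and were lower throughout. A run of 8 genes on chromosome 4, among them Miip, Fv1, Mfn2 and Plod1, held 5 higher and 3 lower. Another run on chromosome 7, from Eed to 4632427E13Rik, held 8 higher genes, 0 of them under all 4 scalings.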
